A study of Homo sapiens with 15 samples.

Results

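The EMT transcription factors described here were the 3 SNAI genes (SNAI1, SNAI2, SNAI3), the 2 TWIST genes (TWIST1, TWIST2), the 2 ZEB genes (ZEB1, ZEB2) and PRRX1, TCF4 and FOXC2. They were taken by name, with earlier results of these data known, and all 10 were found among the 28395 genes of the count table. BEAS-2B, an immortalized bronchial epithelial line of human origin, was cultured with PET-NPLs (polyethylene terephthalate nanoplastics, the particles of a common packaging plastic) at 50 µg/mL or without particles. Total RNA of 15 samples was sequenced after ribosomal RNA depletion. There were 2 unexposed controls and 2 exposed samples at 24 h, 2 and 2 at 15 weeks, and 3 controls and 4 exposed samples at 30 weeks, and controls had the same passage as the exposed cells. All groups were grown in the same serum-containing DMEM with non-essential amino acids and Plasmocin, and the particle medium was renewed every 3 to 4 days. The labels do not say whether replicates came from separate cultures, so p-values measure the spread between these samples, which may be technical.

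The epithelial-mesenchymal transition (EMT) is the process by which epithelial cells loosen their junctions, change their cytoskeleton and become motile, in development, wound repair and carcinoma invasion. SNAI and ZEB proteins are zinc-finger repressors that bind E-box motifs in promoters such as that of CDH1 (E-cadherin) and recruit corepressors. TWIST1, TWIST2 and TCF4 are basic helix-loop-helix proteins that act in dimers and are held back by ID proteins, while PRRX1 is a homeobox factor and FOXC2 a forkhead factor linked to later steps of the same program.

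Depth ran from 23143202 to 31459990 counts per sample. Levels are given as CPM (the count relative to the library total, with libraries scaled by TMM, a trimmed mean of ratios), and levels of different genes are compared only as CPM per kilobase of transcript. By the labels, batch 1 holds all samples of 24 h and 15 weeks and batch 2 those of 30 weeks. Exposed and control cells of a time point therefore always shared a batch, while 30 weeks and batch 2 cannot be told apart. Of the markers of bronchial epithelium, KRT8 and KRT18 were abundant in every sample, but CDH1 never exceeded 0.935 CPM, EPCAM 0.877 CPM, KRT5 0.457 CPM and TP63 0.105 CPM. The mesenchymal filament gene VIM lay between 1030 and 1877 CPM. The basal keratin KRT17 stood at 120 to 165 CPM in the samples of 24 h and at most 2.53 CPM in all later ones, and KRT15 reached at most 1.74 CPM. KRT19 had 9.87 to 12.1 CPM at 24 h, at most 3.995 CPM in later samples and 0.358 to 1.075 CPM in the 30-week controls. Depending on the condition, 4 to 8 of the 14 listed markers had 3 counts or fewer in every sample. The label of bronchial epithelial cells was thus met only in part, by the keratin genes KRT8 and KRT18 and, at 24 h, KRT17. It was not met by CDH1, EPCAM, KRT5 or TP63. The listed KRT14, NKX2-1, SCGB1A1, FOXJ1 and MUC5AC had too few counts to be tested.

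Exposure for 24 h or 15 weeks was not followed by a detectable change in any of these factors, whereas after 30 weeks SNAI2, ZEB1 and TWIST1 were lower in exposed than in control cells and 0 factors were higher. SNAI2 was 9.64-fold lower, ZEB1 2.15-fold lower and TWIST1 2.03-fold lower. For SNAI2 and TWIST1, the mean of exposed cells at 30 weeks lay near that at 15 weeks, and the 30-week controls stood higher. ZEB1 showed the other arrangement, with little difference between the controls of 15 and 30 weeks and a lower level in the exposed cells.

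**Figure D1:**
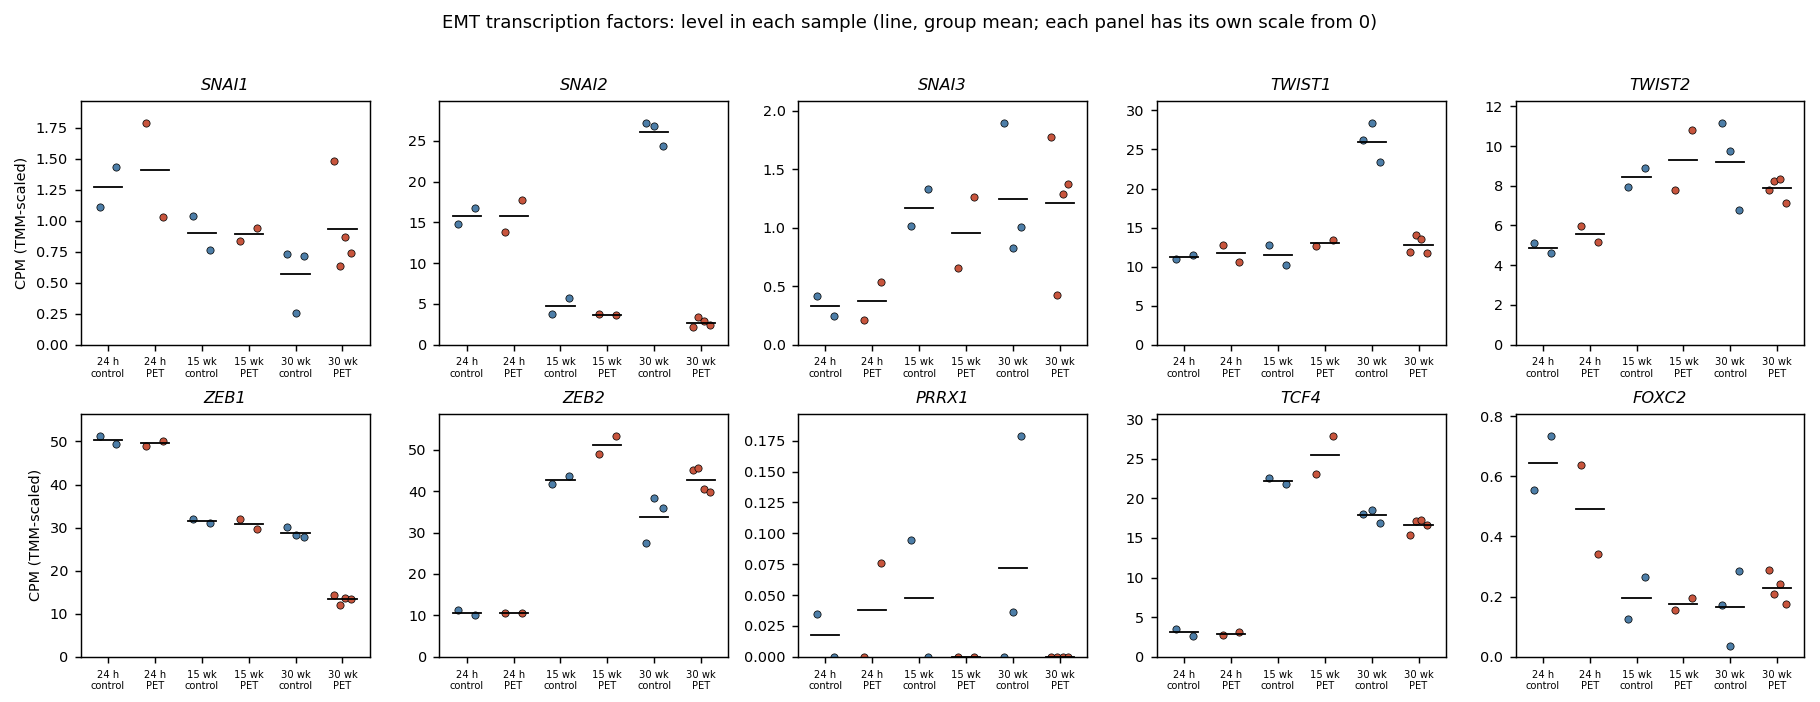
CPM of the 10 EMT transcription factors in each of the 15 samples (points; blue, control; red, exposed to PET-NPLs), by time and treatment on the horizontal axis, with the group mean as a line. SNAI2 and TWIST1 stand apart in the 3 controls of 30 weeks, ZEB1 in the 4 exposed samples of 30 weeks, and ZEB2 and TCF4 in the 4 samples of 24 h.

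Low counts limited what could be tested. A filter on low counts (filterByExpr in edgeR) kept 16740 genes, and 9 of the 10 factors passed it. PRRX1 did not, with 0 to 5 counts per sample and 0 in all 6 exposed samples of 15 and 30 weeks. The 6 condition means were estimated together from all 15 samples by the quasi-likelihood method of edgeR, and a gene was called at a Benjamini-Hochberg adjusted p under 0.05 over all genes tested. At 24 h, 0 of the 9 factors were called by edgeR, as were 0% of all genes, and 0 of 9 had an unadjusted p under 0.05 (277 of all genes had). At 15 weeks 0 of 9 were called, again with 0% of all genes, and 0 of 9 had an unadjusted p under 0.05 (823 of all genes had). DESeq2 and limma-voom also called 0 of the factors at both times. At 30 weeks 3 of 9 were called, against 23.7% of all genes tested. All 3 were lower, a direction taken by 11.7% of all genes, while 12.0% were called higher. The median log2 fold change was -0.10 over the 9 factors and 0.01 over all genes. The exposed and control samples of 30 weeks did not overlap in CPM for 4 factors (the 3 called ones and ZEB2), against 27.3% of all genes.

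**Figure D2:**
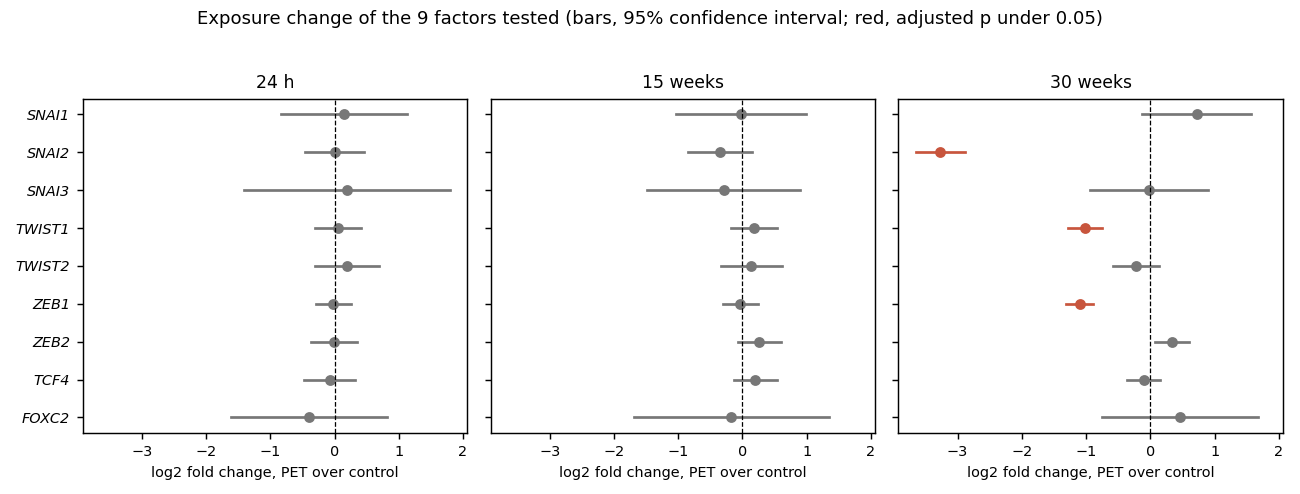
Log2 fold change of exposed over control cells (horizontal axis) for the 9 factors tested, at 24 h, 15 weeks and 30 weeks, with 95% confidence intervals; red marks an adjusted p under 0.05. Each interval at 24 h and 15 weeks crosses 0, and at 30 weeks SNAI2 (-3.27), ZEB1 (-1.10) and TWIST1 (-1.02) lie below it.

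SNAI2 (Entrez gene 6591, chromosome 8, 48917598 to 48921429, minus strand), also known as Slug, is a zinc-finger repressor of epithelial junction genes and a neural crest factor. Its level was 14.9 and 16.8 CPM in the controls at 24 h and 13.9 and 17.8 CPM in exposed cells, with overlapping groups. At 15 weeks it stood at 3.73 and 5.66 CPM in controls and at 3.72 and 3.635 CPM in exposed cells, lower in all 4 samples than in any sample of 24 h. At 30 weeks the 3 controls had 27.1, 26.9 and 24.4 CPM. The 4 exposed samples of 30 weeks had 2.10, 3.43, 2.885 and 2.39 CPM, and each lay below every control and every 15-week sample. The mean was 26.1 ± 1.52 CPM in the controls (SD, n = 3) and 2.70 ± 0.585 CPM in the exposed samples (SD, n = 4). On the log2 scale the change was -3.27 (standard error 0.179, edgeR's Benjamini-Hochberg adjusted p = 3.41e-09). At 15 weeks the log2 fold change was -0.35, with a 95% confidence interval from -0.85 to 0.15. At 24 h its interval ran from -0.46 to 0.46. SNAI2 shares exonic sequence with an antisense gene, and without strand the reads of both cannot be told apart.

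The other 2 SNAI genes were near the limit of detection. SNAI1 (Entrez gene 6615, chromosome 20), the founding member of the family and an early response gene of TGF-beta signalling, had 7 to 42 counts per sample, or 0.253 to 1.79 CPM. Its log2 fold change at 30 weeks was 0.72 (95% confidence interval -0.13 to 1.57), and the groups overlapped. SNAI3 (Entrez gene 333929, chromosome 16) had 5 to 49 counts per sample. Its log2 fold change at 30 weeks was -0.02, with an interval from -0.94 to 0.90, so changes within that interval were not detectable at this depth. SNAI3 overlaps SNAI3-AS1 on the opposite strand, which had 33 to 146 counts per sample, and the counting strand is not given in the sources used here.

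TWIST1 (Entrez gene 7291, chromosome 7, 19113047 to 19117636, minus strand), a basic helix-loop-helix factor of mesoderm and neural crest, held a nearly constant level apart from the 30-week controls. At 24 h it was measured at 11.01 and 11.5 CPM in controls and at 12.7 and 10.6 CPM in exposed cells. At 15 weeks the controls had 12.8 and 10.2 CPM and the exposed cells 12.7 and 13.4 CPM. At 30 weeks the controls had 26.2, 28.3 and 23.4 CPM, above each of the other 12 samples. The exposed cells of 30 weeks had 11.8, 14.1, 13.5 and 11.8 CPM, and 2 of them lay within the range of the 24 h and 15-week samples. The 30-week mean was 26.0 ± 2.46 CPM in controls (SD, n = 3) and 12.8 ± 1.18 CPM in exposed cells (SD, n = 4). This gave a log2 change of -1.02 (standard error 0.127, edgeR's Benjamini-Hochberg adjusted p = 2.24e-05). TWIST1 shares exonic sequence with an antisense transcript, so reads of the pair cannot be told apart without strand. TWIST2 (Entrez gene 117581, chromosome 2, 238848085 to 238910534, plus strand), its close relative in dermal and osteoblast precursors, ranged from 6.76 to 11.1 CPM in the 30-week controls and from 7.15 to 8.34 CPM in exposed cells. The groups overlapped, with a log2 fold change of -0.22 (95% confidence interval -0.59 to 0.14).

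ZEB1 (Entrez gene 6935, chromosome 10, 31318417 to 31529804, plus strand) and ZEB2 (Entrez gene 9839, chromosome 2, 144384081 to 144520119, minus strand) encode large repressors with a zinc-finger cluster near each end. ZEB1 was measured at 51.3 and 49.3 CPM in the 24 h controls and at 49.04 and 50.05 CPM in exposed cells. At 15 weeks the controls had 32.0 and 30.97 CPM and the exposed cells 31.9 and 29.6 CPM. The 30-week controls followed with 30.1, 28.2 and 27.8 CPM. The exposed cells of 30 weeks had 14.4, 12.05, 13.6 and 13.4 CPM, the lowest 4 of the 15 samples. The mean at 30 weeks was 28.7 ± 1.23 CPM in controls (SD, n = 3) and 13.4 ± 0.981 CPM in exposed cells (SD, n = 4). The corresponding log2 change was -1.10 (standard error 0.1002, edgeR's Benjamini-Hochberg adjusted p = 7.38e-07).

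ZEB2 stood at 11.4 and 10.01 CPM in the 24 h controls and at 10.6 CPM in both exposed samples. At 15 weeks it reached 41.7 and 43.6 CPM in controls and 48.9 and 53.4 CPM in exposed cells. At 30 weeks the controls had 27.4, 38.3 and 35.8 CPM and the exposed cells 45.2, 45.7, 40.4 and 39.8 CPM. Every exposed sample of 30 weeks thus lay above every control, by a narrow margin. The log2 fold change was 0.34 (95% confidence interval 0.08 to 0.60) and did not pass the threshold (edgeR's Benjamini-Hochberg adjusted p = 0.056). It passed with DESeq2 (adjusted p = 0.0447), with limma-voom (0.0455), with limma-voom and surrogate variables (0.0361) and without control replicate 2 (0.0308). ZEB1 and ZEB2 overlap the antisense genes ZEB1-AS1 and ZEB2-AS1, which had 17 to 80 and 0 to 4 counts per sample.

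**Figure D3:**
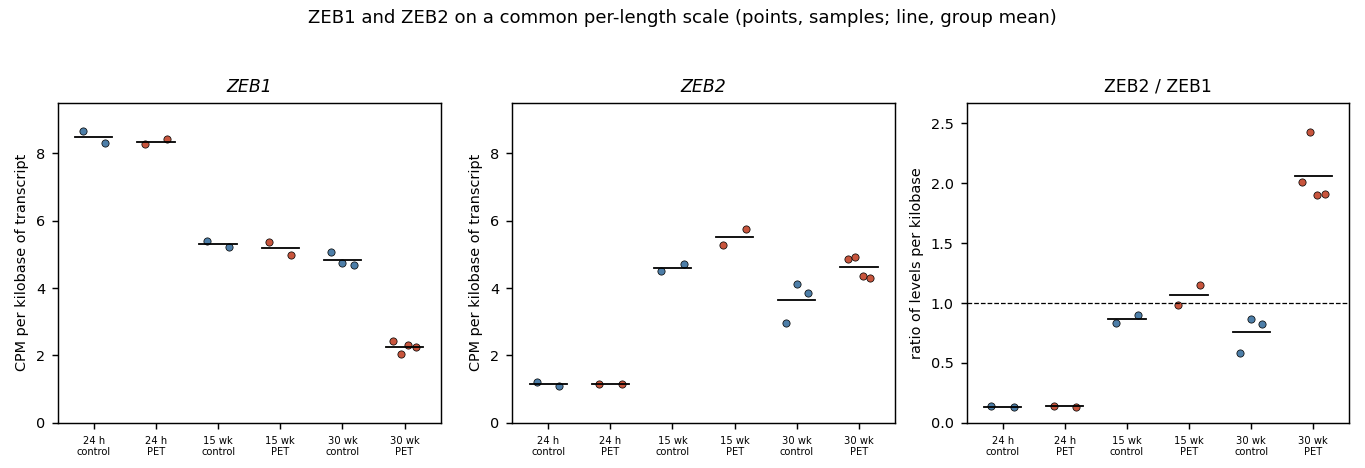
ZEB1 and ZEB2 as CPM per kilobase of canonical transcript, and the ratio of ZEB2 to ZEB1 on that scale, in each sample by time and treatment (points; blue, control; red, exposed; line, group mean). The ratio lies at 0.130 to 0.142 in the 24 h controls, near 1 (dashed) at 15 weeks and at 1.90 to 2.43 in the exposed cells of 30 weeks.

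Per kilobase of transcript, the balance of the ZEB genes differed between the times and, at 30 weeks, between exposed and control cells. The ratio of ZEB2 to ZEB1 was 0.130 and 0.142 in the 24 h controls and 0.136 and 0.139 in exposed cells. It was 0.835 and 0.903 in the controls of 15 weeks and 0.982 and 1.15 in the exposed cells. At 30 weeks it lay between 0.583 and 0.870 in controls and between 1.90 and 2.43 in exposed cells. ZEB1 was therefore the more abundant of the pair in all 7 control samples, and ZEB2 in all 4 exposed samples of 30 weeks. The ratio was chosen after the levels had been seen and is given without a test.

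The start regions of the ZEB genes are shown because SNAI and ZEB proteins bind E2-boxes, the 6 letters CACCTG or, read on the opposite strand, CAGGTG. RefSeq promoter windows of GRCh38.p14, from 250 bases before to 50 after a transcript start, were at hand for 5 of the 10 factors (PRRX1, ZEB2, TWIST2, ZEB1 and TCF4), in 20 windows. An E2-box on either strand was found in 2 of the 20 windows, both of ZEB1, and in 20.59% of all 35116 windows of that length. Below, the 250 bases before the first start of ZEB1 (chr10:31318167-31318416, plus strand) carry 1 E2-box, in capitals, whose first base lies 57 bases before the start. The 250 bases before the start of ZEB2 (chr2:144520120-144520369, minus strand, written along the gene) carry none, which says only that these letters do not occur there.
ZEB1 upstream region: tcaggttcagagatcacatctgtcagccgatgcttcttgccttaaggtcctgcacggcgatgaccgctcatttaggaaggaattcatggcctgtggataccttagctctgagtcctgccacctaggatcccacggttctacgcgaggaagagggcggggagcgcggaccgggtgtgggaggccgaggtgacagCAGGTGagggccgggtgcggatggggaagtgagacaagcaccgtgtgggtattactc
ZEB2 upstream region: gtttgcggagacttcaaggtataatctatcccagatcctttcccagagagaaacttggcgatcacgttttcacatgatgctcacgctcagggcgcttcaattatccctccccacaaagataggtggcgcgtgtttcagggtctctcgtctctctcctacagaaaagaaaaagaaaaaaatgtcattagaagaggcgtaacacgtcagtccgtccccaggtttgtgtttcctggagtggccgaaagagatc

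ZEB1 and ZEB2 are also textbook targets of the miR-200 family, epithelial microRNAs whose seed (bases 2 to 8, in capitals) pairs with sites in the ends of both messengers. The family has 2 seeds, and a mature sequence with each is given from RefSeq (GRCh38.p14), both encoded on chromosome 12.
hsa-miR-200c-3p (chr12:6963742-6963764, plus strand): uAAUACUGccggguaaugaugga
hsa-miR-141-3p (chr12:6964155-6964176, plus strand): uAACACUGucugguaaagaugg
ZEB1 site (chr10:31527621-31527641, plus strand): gttttatcttatCAGTATTat
ZEB2 site (chr2:144389051-144389071, minus strand): actaccatacatCAGTATTtt
The sites, read from GRCh38, lie in the last exon of the canonical transcripts (exon 9 of ZEB1, exon 10 of ZEB2), with the letters CAGTATT that pair with the first seed in capitals. That match occurred 6 times in the 3' UTR of ZEB1 and 5 times in that of ZEB2. Of other 3' UTRs of similar length (within 10%), 0.0% held as many in either case. At least 1 match was held by 26.51% and 44.23% of them. The match to the second seed, CAGTGTT, occurred 3 and 4 times. As many were held by 0.59% and 1.24% of those UTRs, and at least 1 by 27.94% and 49.73%. Mature microRNAs were not measured. The precursor genes MIR200A, MIR200C, MIR429 and MIR205 had 0 counts in all 15 samples, MIR141 had 3 counts and MIR200B 4 counts over all samples together, and MIR205HG was at 0.

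TCF4 (Entrez gene 6925, chromosome 18, 55222185 to 55635957, minus strand), an E protein that dimerizes with TWIST factors, was not called in exposed against control cells at any time. At 24 h it had 3.53 and 2.69 CPM in controls and 2.81 and 3.09 CPM in exposed cells. At 15 weeks it had 22.5 and 21.8 CPM in controls and 23.02 and 27.9 CPM in exposed cells. At 30 weeks the controls had 18.0, 18.6 and 16.9 CPM and the exposed cells 15.4, 17.1, 17.2 and 16.7 CPM. The last groups overlapped, with a log2 fold change of -0.10 (95% confidence interval -0.36 to 0.15). FOXC2 (Entrez gene 2303, chromosome 16), a forkhead factor of lymphatic and mesenchymal development, had 1 to 21 counts per sample, and its interval at 30 weeks ran from -0.75 to 1.68 on the log2 scale. TCF4 and FOXC2 also overlap exons of antisense genes (TCF4-AS2 and RPL21P126, and FOXC2-AS1). PRRX1 (Entrez gene 5396, chromosome 1) had at most 0.179 CPM.

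The order of the factors by level, in CPM per kilobase, differed between the conditions. In the 24 h controls ZEB1 led with 8.48 ± 0.242 (SD, n = 2), followed by SNAI2 with 7.26 ± 0.628 and TWIST1 with 6.90 ± 0.200, and the ranges of SNAI2 and TWIST1 overlapped. In the 15-week controls TWIST1 (7.04 ± 1.12), TWIST2 (6.29 ± 0.500) and ZEB1 (5.30 ± 0.122) came first, and the neighbours TWIST1 and TWIST2 overlapped. In the 30-week controls TWIST1 had 15.95 ± 1.51 (SD, n = 3) and SNAI2 12.0 ± 0.698. In the exposed cells of 30 weeks the order was TWIST1 with 7.85 ± 0.724 (SD, n = 4), TWIST2 with 5.87 ± 0.405, ZEB2 with 4.62 ± 0.335, ZEB1 with 2.25 ± 0.165, TCF4 with 2.07 ± 0.105 and SNAI2 with 1.24 ± 0.268. The ranges of TCF4 and ZEB1 overlapped there, while ZEB2 and ZEB1 did not.

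The change with exposure at 30 weeks was larger than that at 15 weeks for the same 3 factors. The difference of the 2 log2 fold changes was tested in the same fit, in which 4.74% of all genes were called, 2.66% with a higher and 2.08% with a lower value at 30 weeks. It was -2.92 for SNAI2 (adjusted p = 1.98e-05), -1.20 for TWIST1 (0.00252) and -1.07 for ZEB1 (0.000849) by edgeR with Benjamini-Hochberg adjustment. The other 6 factors tested were not called. This test sets batch 1 beside batch 2, and it shares its samples with the comparisons above.

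Between 24 h and 15 weeks, within batch 1, 5 of the 9 factors were called in the control cells, against 24.9% of all genes tested. TCF4, ZEB2 and TWIST2 were higher at 15 weeks (12.7% of all genes were), and SNAI2 and ZEB1 were lower (12.2% of all genes were). The log2 fold changes were 2.83 for TCF4, 2.00 for ZEB2 and 0.79 for TWIST2, and -1.75 for SNAI2 and -0.68 for ZEB1. In exposed cells the called factors had the same names, against 26.0% of all genes, 13.5% higher and 12.5% lower. Their log2 fold changes were 3.11 for TCF4, 2.26 for ZEB2, 0.74 for TWIST2, -2.10 for SNAI2 and -0.69 for ZEB1. TCF4 was thus 7.10-fold higher in controls and 8.62-fold higher in exposed cells, the largest change of any of the 9 factors in these comparisons. TWIST1 differed by 0.03 and 0.16 on the log2 scale, with intervals from -0.33 to 0.39 and from -0.20 to 0.52. Beside these values, the keratin gene KRT17 had 138 to 165 CPM in the 24 h controls and 1.00 to 2.53 CPM in those of 15 weeks, and its part in these differences was not tested. The comparisons over time share their samples with those of exposure.

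Between 15 and 30 weeks, across the batches, the control cells had higher SNAI2 (log2 fold change 2.47) and TWIST1 (1.18). These 2 factors were called against 50.3% of all genes, 25.6% higher and 24.6% lower, so that the share of the factors was below that of the table. In exposed cells ZEB1 (-1.20) and TCF4 (-0.62) were lower, against 46.0% of all genes, 23.3% higher and 22.7% lower. SNAI2 differed by -0.44 in exposed cells (95% confidence interval -0.89 to 0.003) and TWIST1 by -0.02 (-0.33 to 0.29). Without exposed replicate 2 of 15 weeks, 1 factor (ZEB1) was called in this comparison.

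The 30-week controls, in which SNAI2 and TWIST1 were high, also stood apart in other genes. Of 12 skeletal muscle markers, 6 were tested, and 4 were lower and 0 higher in exposed than in control cells (11.7% and 12.0% of all genes). These were the myogenic factors MYOD1 and MYOG, the muscle filament gene DES and the acetylcholine receptor gene CHRNA1. MYOG and DES had an average under 1 CPM. MYOD1 had 65.8 to 106 CPM in those controls and at most 5.72 CPM in every other sample, and CHRNA1 had 46.7 to 48.5 CPM against at most 0.456 CPM. The summed level of the muscle list was 175 to 198 CPM in the 30-week controls, 44.8 to 56.5 CPM in the exposed cells of 30 weeks and 94.2 to 152 CPM elsewhere, and TTN made up most of it outside those controls. The epithelial markers summed to 313 to 410 CPM in the 30-week controls and to 880 to 1098 CPM in the exposed cells. At the earlier times they summed to 821 to 1049 CPM. Of 7 tested, 4 were called higher (KRT8, KRT15, KRT18 and KRT19) and 0 lower, beside 12.0% and 11.7% of all genes. KRT15 had an average under 1 CPM. The fibroblast markers summed to 479 to 602 CPM and to 374 to 436 CPM, and to 226 to 300 CPM at the earlier times. Of 7 tested, COL1A2 was called higher and COL1A1 and LUM were called lower, beside 12.0% and 11.7% of all genes. LUM had an average under 1 CPM. Of 5 leukocyte markers, PTPRC stayed at or under 0.227 CPM in all samples. CD14, the 1 tested, was called higher (1.29 to 1.825 CPM in controls, 3.75 to 5.63 CPM in exposed cells), beside 12.0% of all genes. The leukocyte list summed to 1.46 to 1.97 CPM in the 30-week controls and to 3.855 to 5.84 CPM in the exposed cells. At the earlier times it summed to 2.23 to 7.145 CPM. Of 4 endothelial markers, 3 were tested and called higher (VWF, CDH5 and KDR, each with an average under 1 CPM), beside 12.0% of all genes. The endothelial list summed to 0.559 to 0.866 CPM in controls and 2.15 to 3.01 CPM in exposed cells. At the earlier times it summed to 0.312 to 1.23 CPM. Furthermore, 6 abundant small noncoding RNAs took 22.3% to 31.03% of the counts in these controls and 17.0% to 21.5% in the exposed cells, against 9.75% to 12.9% at the earlier times. Without those 6 RNAs the same 3 factors were called at 30 weeks. In bulk RNA, a change in the share of cells that hold a transcript and a change per cell cannot be told apart, and the part of these markers in the differences was not tested.

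The partners of the factors differed in part. Of 6 E protein and ID genes, 3 were lower at 30 weeks and 0 were higher (11.7% and 12.0% of all genes), with a median log2 fold change of -0.96. These were ID2, ID1 and ID3, which encode helix-loop-helix proteins that lack a DNA-binding region and sequester E proteins. ID2 was lower, from 182 to 292 CPM in controls to 28.7 to 78.7 CPM in exposed cells (log2 fold change -2.41). ID1 had a log2 fold change of -1.09 and ID3 one of -0.84. Between 15 and 30 weeks, across the batches, controls changed by 2.13 for ID2, 0.48 for ID1 and -0.10 for ID3 on the log2 scale. Exposed cells changed by -0.64, -0.41 and -0.86. ID4 had at most 0.179 CPM at 30 weeks. The E protein genes TCF3 (0.13) and TCF12 (0.06) were not called.

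Among 14 corepressor genes, all tested, 1 was lower and 0 were higher (11.7% and 12.0% of all genes), with a median log2 fold change of 0.04. The lower one was CTBP1, which binds the ZEB proteins directly, at 125 to 154 CPM in controls and 81.1 to 98.2 CPM in exposed cells (log2 fold change -0.60). Its relative CTBP2 had a log2 fold change of -0.18 and was not called. Of 13 tested genes for the stability of SNAI and TWIST proteins, 3 were higher (LATS2, FBXO45 and BTRC, 0.34 to 0.36) and 5 were lower, beside 12.0% and 11.7% of all genes, including the kinase gene PRKD1 (-2.31) and the ubiquitin ligase genes FBXL5 (-0.89) and FBXW7 (-0.785). The other 2, CSNK1E (-1.66, with an average under 1 CPM) and PAK1 (-0.43), were named after their values had been seen. The median of that list was 0.07.

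Of the genes that oppose EMT, only 5 of 12 could be tested, and 1 was called, GRHL1 (log2 fold change 0.65), beside 23.7% of all genes. OVOL1, GRHL2 and ESRP1, which keep epithelia in their state, never exceeded 0.181 CPM. Other genes of the list were expressed. ESRP2 had 12.5 to 13.7 CPM in the 24 h controls and 0.387 to 0.895 CPM in those of 30 weeks. At 30 weeks ESRP2 (-0.53), KLF4 (0.70) and ELF3 (0.42) were tested and not called. These 6 genes lie outside the rule for named genes. Of 11 other tested factors linked to EMT, 3 were higher and 4 lower (12.0% and 11.7% of all genes), with a median of -0.15. HMGA2 (1.48), PRRX2 (1.28), a relative of PRRX1, and FOXC1 (1.15), a relative of FOXC2, were the higher ones. SOX9 (-2.07), GATA6 (-1.50) and RUNX2 (-1.23) were lower. For SOX9 the means at 15 and 30 weeks were 2.72 and 26.5 CPM in controls, and 2.10 and 6.29 CPM in exposed cells. For GATA6 they were 1.31 and 4.46 CPM, and 1.14 and 1.58 CPM. For RUNX2 they were 9.905 and 24.2 CPM, and 8.76 and 10.3 CPM. SOX4 (-0.60), also lower, was named after its value had been seen. Of 20 inducing signals, 5 were higher, with WNT5A (1.12), HES1 (0.98) and JAG1 (0.80) in front, and 2 were lower, beside 12.0% and 11.7% of all genes. The TGF-beta receptor gene TGFBR1 was lower by the rule for named genes (-1.33). Its mean was 97.3 CPM in the controls of 15 weeks and 228 CPM in those of 30 weeks. In exposed cells the means were 102.8 and 90.5 CPM. The higher TGFB2 (0.57) and YAP1 (0.56) and the lower LEF1 (-3.56, with an average under 1 CPM) were named after their values had been seen. The median of the list was 0.23.

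**Figure D4:**
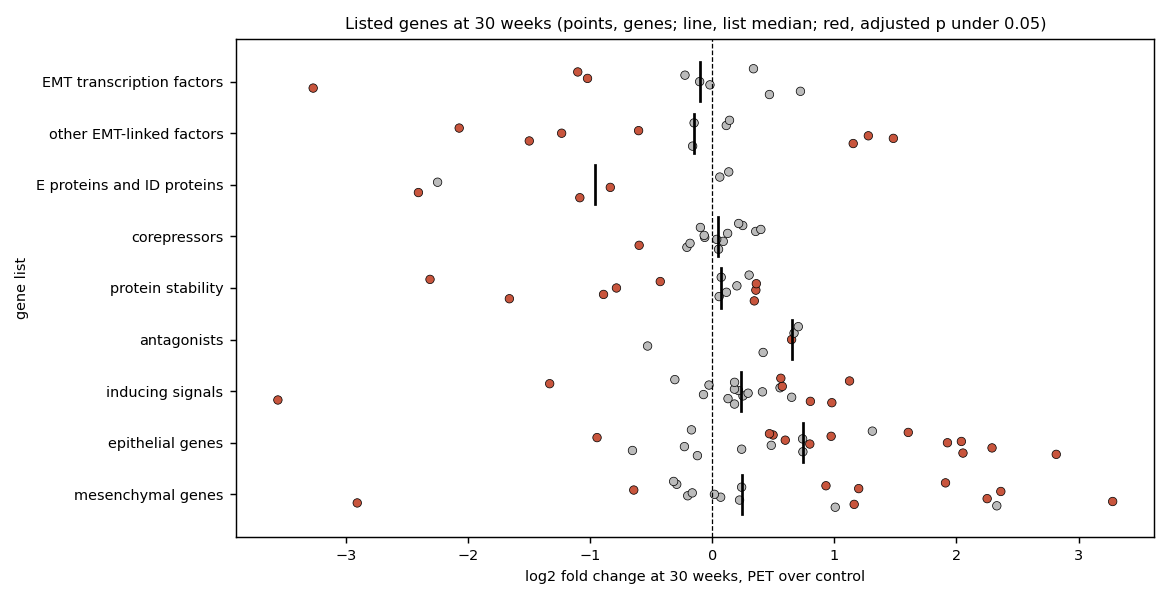
Log2 fold change of exposed over control cells at 30 weeks (horizontal axis) for the tested genes of each list (points; red, adjusted p under 0.05; black line, list median). SNAI2, ZEB1 and TWIST1 are the 3 red points of the top line, and the epithelial genes have 11 red points above 0 and 1 below.

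Among epithelial genes, which the factors are known to repress, and mesenchymal genes, which they induce, more were called higher than lower at 30 weeks. Of 23 epithelial genes, 21 were tested at 30 weeks, 11 were higher and 1 was lower (12.0% and 11.7% of all genes), with a median log2 fold change of 0.74. CDH3 (P-cadherin) had 0.301 to 0.830 CPM in controls and 3.15 to 5.81 CPM in exposed cells, with a log2 change of 2.82. The desmosome gene DSP (2.29) and the tight junction gene CLDN1 (2.05) followed, and MUC1 (-0.94) was the lower one. The mean of DSP at 15 and 30 weeks was 25.7 and 4.89 CPM in controls and 29.1 and 24.1 CPM in exposed cells. For CLDN1 the means were 0.778 and 2.31 CPM, and 1.23 and 9.66 CPM. For CDH3 they were 1.34 and 0.616 CPM, and 1.69 and 4.45 CPM. CDH1, the classical target of SNAI and ZEB repressors, had 0.394 to 0.817 CPM in controls and 0.556 to 0.579 CPM in exposed cells, and its log2 fold change was -0.12 with an interval from -0.83 to 0.58.

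Of 20 mesenchymal genes, 19 were tested, 7 were higher and 2 were lower (12.0% and 11.7% of all genes), with a median of 0.24. The neural cadherin gene CDH2 had 75.4 to 86.1 CPM in controls and 165 to 194 CPM in exposed cells, with a log2 change of 1.16. Between 15 and 30 weeks, across the batches, its log2 fold change was -0.94 in controls and 0.02 in exposed cells. Among genes with an average of at least 1 CPM, the matrix genes COL1A2 (3.28), FN1 (2.25) and TNC (1.91) had the highest values of exposed over control cells. POSTN (2.36), below that average, was also higher. COL1A1 (-2.91) and S100A4 (-0.64) were the lower ones, and VIM (-0.32) was not called (edgeR's Benjamini-Hochberg adjusted p = 0.080).

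Across the 15 samples, the genes most like each called factor were found by Pearson's correlation of log2 CPM, among 13370 genes with an average of at least 1 CPM. The samples share 6 conditions and 2 batches, so these values describe the pattern only. Nearest to SNAI2 were FMN1 (0.97), TSTD1 (0.967) and TEDC2 (0.965). FMN1, a formin of actin assembly, had 19.96 to 22.2 CPM in the 30-week controls and 2.01 to 2.87 CPM in the exposed cells. Nearest to ZEB1 were LSAMP (0.972), FAT4 (0.967) and SUSD5 (0.963). FAT4, a giant protocadherin, went from 126 to 158 CPM in the 24 h controls to 50.6 to 65.1 CPM in the 30-week controls and 24.9 to 29.3 CPM in the exposed cells of 30 weeks. Nearest to TWIST1 were EBF3 (0.963), LBH (0.959) and SOD2 (0.957). EBF3 was at 0 in every sample of 24 h and 15 weeks and had 5.78 to 10.9 CPM in the 30-week controls.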

How the data were processed

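Reads were cleaned by the authors with Rfastp, aligned to GRCh38 and assigned to genes with Rsubread (featureCounts per the labels), and the deposited values are these raw counts for 28395 genes named by Entrez number; all 15 columns were used. Counting strand and multi-mapping are not given in the sources used here. The study then used filterByExpr, sva and limma-voom.

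Here counts were fitted in R 4.3.3 with edgeR 4.0.16 (filterByExpr, TMM, quasi-likelihood test, 16740 genes, adjusted p under 0.05 over all of them). Alternatives used DESeq2 1.42.0, limma 3.58.1 and sva 3.50.0, other filters, scalings, thresholds, blocks and samples. Log2 CPM used a prior count of 2. Lengths are those of GENCODE v44 canonical transcripts, and gene positions those of RefSeq on GRCh38.p14. The procedure was tested on simulated data. A listed gene is not reported here and was left out of its list. Members, lists and tests were chosen with earlier results of these data known. Named genes were all 10 factors, some partners and targets whatever they showed, and per list at most 3 called genes in each direction with the largest changes at 30 weeks and an average of at least 1 CPM. No replicates were merged, since all pairs differed by more than sampling noise.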

Additional observations from a re-analysis of the deposited data

Results flagged for a closer look

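The changes with exposure at 30 and 15 weeks differed for 3 factors by a test of the difference itself in edgeR. On the log2 scale the change at 30 weeks minus that at 15 weeks was -2.92 for SNAI2, -1.20 for TWIST1 and -1.07 for ZEB1. For SNAI2 and TWIST1 the means of exposed cells at the 2 times were 3.68 and 2.70 CPM and 13.01 and 12.8 CPM, while those of controls were 4.70 and 26.1 CPM and 11.5 and 26.0 CPM. For ZEB1 the means of controls were 31.5 and 28.7 CPM and those of exposed cells 30.8 and 13.4 CPM. The later time and its batch cannot be told apart. None of the 9 factors had a sample far from the others among the 4 exposed samples of 30 weeks by Dixon's ratio.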

How the results depend on the processing

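At 30 weeks SNAI2, ZEB1 and TWIST1 were called under each of the 18 alternatives, and ZEB2 was added in 4 of them (3 to 4 factors called). Log2 fold changes of the 16 alternatives that refit the gene ran from -3.41 to -3.17 for SNAI2 (adjusted p 1.09e-63 to 1.65e-06), from -1.14 to -1.06 for ZEB1 (1.26e-26 to 0.000253) and from -1.09 to -0.956 for TWIST1 (2.04e-12 to 0.000641), and those of ZEB2 had adjusted p of 0.0308 to 0.243. The 3 factors were called in the difference between 30 and 15 weeks under all 22 alternatives. With limma-voom and surrogate variables (2 variables), 4 factors were called between 15 and 30 weeks in controls. With a fold change of at least 2, there were 3 between 24 h and 15 weeks in controls, 3 in exposed cells and 1 between 15 and 30 weeks in exposed cells, because fewer genes pass that criterion. Leaving out single replicates gave 1 to 3 factors in the last comparison. The cause was not tested for the other changes.

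Values near 0 changed sign, and so did some larger ones of factors with few counts. In the main fit FOXC2 at 30 weeks was 0.468, and SNAI3 was 0.194 at 24 h and -0.291 at 15 weeks. SNAI2 at 24 h was 0.00288 with DESeq2, 0.00604 with an average of at least 1 CPM, 0.00087 with upper-quartile scaling and 0.00035 without 6 small noncoding RNAs. With surrogate variables ZEB2 at 24 h was 0.00417 and SNAI3 at 30 weeks 0.162. Leaving out single replicates, the log2 fold changes at 24 h ran from -0.0521 to 0.0027 for ZEB1, -0.625 to 0.677 for SNAI3, -0.261 to 0.126 for TCF4, -0.0963 to 0.0832 for ZEB2, -0.311 to 0.49 for SNAI1, -0.0878 to 0.178 for TWIST1 and -0.19 to 0.159 for SNAI2. At 15 weeks they ran from -0.0854 to 0.0218 for ZEB1, -0.587 to 0.453 for FOXC2, -0.838 to 0.114 for SNAI3, -0.112 to 0.359 for TWIST2 and -0.229 to 0.217 for SNAI1, and at 30 weeks from -0.0189 to 1.18 for FOXC2 and -0.258 to 0.409 for SNAI3. SNAI1, SNAI3 and FOXC2 had no value under an average of at least 1 CPM, nor FOXC2 at 15 and 30 weeks with the comparison fitted alone.

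Deviations of samples that share a replicate number had correlations of -0.0601 at 24 h, 0.029 at 15 weeks, and -0.118, 0.303 and 0.0981 at 30 weeks. At 30 weeks 1 of 3 controls and 2 of 3 exposed samples correlated best with their own number. Groups are too small for this check to decide whether samples were paired. With the replicate block 3 factors were called at 30 weeks, and 3334 instead of 3961 of all genes. The counts over all genes behind the background shares moved by more than 1.5 times in places. At 30 weeks 3961 genes became 2370 with the comparison fitted alone, 2166 at an adjusted p under 0.01, 1463 with a fold change of at least 2 and 2491 without control replicate 1. For the difference between 30 and 15 weeks 794 became 1973 with surrogate variables, 403 at 0.01, 393 to 483 without any one sample of 15 weeks and 1519 without exposed replicate 2 of 30 weeks. Between 24 h and 15 weeks 4174 genes in controls and 4349 in exposed cells became 2168 and 2242 with a fold change of at least 2 and 6800 and 6916 fitted alone, 2472 and 2548 at 0.01, and 2462 to 2693 and 2526 to 2919 without any one sample. With surrogate variables there were 6473 in controls. Between 15 and 30 weeks 8419 and 7697 became 3994 and 2643 with a fold change of at least 2, and the exposed cells 5069 to 5077 without either sample of 15 weeks. At 15 weeks 0 genes in edgeR stood beside 17 with DESeq2, 10 with surrogate variables, 10 with no filter and 304 with the comparison fitted alone, 0 factors among them. Depth limits SNAI1, SNAI3, FOXC2 and PRRX1, which had 0 to 49 counts per sample.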
